A study of Mus musculus with 9 samples.

Results

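The SoxC genes Sox4, Sox11 and Sox12 were followed probe set by probe set on Affymetrix mouse expression arrays of normal and leukaemic myeloid progenitors. All probe sets whose only gene symbol in the platform annotation was Sox4, Sox11 or Sox12 were taken, which gave 17 of the 45101 probe sets on the arrays: 8 for Sox4, 6 for Sox11 and 3 for Sox12. There were 9 arrays, 3 in each of 3 groups, all labelled as strain C57/BL6, blood, age 2 to 4 months. Wild type cells came from C57/BL6 mice. Sox4 leukaemic cells came from mice with leukaemia that overexpressed Sox4, and K/L leukaemic cells from mice with leukaemia and mutations in both alleles of Cebpa, which encodes the granulocyte transcription factor C/EBPα. How Sox4 was overexpressed, from which construct and in which cells, is not given in the sources used here, nor is what the K and the L stand for. The RNA was that of sorted FrII cells, a sort that takes c-Kit-positive, Mac1 low or positive cells without lineage marks or Sca-1. The source names of the leukaemic samples, not those of wild type, also ask for CD45.2 without CD45.1. Titles speak of mice and descriptions of 1 numbered mouse per array, with nothing on separate leukaemias, so the spread behind each p-value is that between arrays, which may be technical.

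SoxC proteins bind DNA through an HMG box and activate transcription through a domain at their other end, and the family has overlapping roles in progenitor cells of neural and mesenchymal tissues. In the blood system Sox4 is known for its need in early B cell development and as a recurrent site of retroviral insertion in mouse leukaemia. Sox11 is known mainly from neural tissue and, when ectopic, from mantle cell lymphoma, and Sox12 is known as the weakest activator of the family. C/EBPα is known to repress Sox4.

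The DNA just upstream of each gene is shown first. The RefSeq promoter table, build GRCm38.p6, held all 3 members, and the 250 bases before the transcription start are printed 5′ to 3′ with the letters CCAAT, or ATTGG on the other strand, in capitals.
Sox4, chr13:28953700-28953949, minus strand: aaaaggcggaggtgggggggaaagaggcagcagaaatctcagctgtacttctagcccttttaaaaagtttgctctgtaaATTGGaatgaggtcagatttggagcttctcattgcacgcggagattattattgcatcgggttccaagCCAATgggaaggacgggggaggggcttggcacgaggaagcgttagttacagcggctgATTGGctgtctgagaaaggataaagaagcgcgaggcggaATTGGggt
Sox11, chr12:27342719-27342968, minus strand: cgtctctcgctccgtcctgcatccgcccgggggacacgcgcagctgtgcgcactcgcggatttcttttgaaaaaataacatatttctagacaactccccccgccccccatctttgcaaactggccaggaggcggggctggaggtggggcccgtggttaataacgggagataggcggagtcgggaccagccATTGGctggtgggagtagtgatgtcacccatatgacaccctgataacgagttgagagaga
Sox12, chr2:152398047-152398296, minus strand: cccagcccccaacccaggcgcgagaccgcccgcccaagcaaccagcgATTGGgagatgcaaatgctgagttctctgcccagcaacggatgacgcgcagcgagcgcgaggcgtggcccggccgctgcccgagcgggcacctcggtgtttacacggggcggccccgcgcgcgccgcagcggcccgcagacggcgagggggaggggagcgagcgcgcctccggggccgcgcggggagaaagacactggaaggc
CCAAT letters were chosen after the sequences were seen, and they are a different motif from the C/EBP core given below. They occurred 4 times in the Sox4 window, ending 167, 100, 43 and 4 bases before the start, and 1 time each in the Sox11 and Sox12 windows. At least 1 match was present in 33.85 percent of 32851 windows of the same length, and at least 4 in 0.84 percent. The C/EBP core TTGCNNAA, the Sox motifs AACAAAG and AACAATG and the TATA letters TATAAA were searched on both strands and had 0 matches in all 3 windows, against 9.56, 5.03, 3.29 and 12.37 percent of all windows. GC content was 50.8 percent for Sox4, 58.0 percent for Sox11 and 74.4 percent for Sox12, with a median of 52.4 percent over all windows.

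A few facts bear on every value. Values are log2 intensities with a floor of 3, given by array or as mean ± SD (n = 3), and array medians lay between 5.43 and 5.55. With 3 arrays a group the precision is limited. Testing was restricted to probe sets with 3 or more of 9 values higher than the 40th percentile of the array, which was 4.84 to 4.95. Wild type array 3 stood apart, with Pearson r of 0.986 and 0.986 to the other wild type arrays over all probe sets against 0.991 to 0.994 in every other pair of a group. The ratio of 3′ to 5′ signal of the Gapdh control, a sign of RNA quality, did not overlap between groups. It was 2.68 to 2.91 on wild type, 2.22 to 2.44 on Sox4 and 1.93 to 2.00 on K/L arrays, and its part in the results was not tested. For the actin control the same ratio overlapped between groups. There it was 0.88 to 0.98 on wild type, 0.88 to 0.91 on Sox4 and 0.87 to 0.91 on K/L arrays. Myeloid progenitor marks were present in all groups, with Mpo, the myeloperoxidase gene, at 13.88, 13.90 and 13.81 and Kit at 9.17, 9.18 and 9.22 (means of wild type, Sox4 and K/L arrays). Itgam, which encodes a chain of Mac1, did not pass the filter (means of 4.91, 4.20 and 3.83). Elane, the neutrophil elastase gene, was at 12.85 and 13.12 on wild type and Sox4 arrays and fell by 4.04 ± 0.17 in K/L cells (adjusted p = 8.05e-08), so the groups did not carry the same myeloid marks throughout. Prtn3 rose by 0.52 ± 0.11 in K/L and 0.78 ± 0.11 in Sox4 cells (adjusted p = 0.0026 and 0.000211), and Ctsg passed in no comparison. Ptprc, which encodes CD45, changed by -0.44 ± 0.10 and -0.49 ± 0.10 (adjusted p = 0.00484 and 0.00252). Its other probe set passed in neither (adjusted p = 0.125 and 0.0614).

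Sox4 was by the probe set 1433575_at the largest rise of K/L over wild type cells among 24036 probe sets tested, and the one ranked 3 of Sox4 over wild type cells. Its values were 3.84, 3.81 and 3.97 on the wild type arrays, 9.73, 9.61 and 9.87 on the Sox4 arrays and 10.87, 10.52 and 10.62 on the K/L arrays. The groups formed separate levels with no overlap, and all 3 wild type arrays lay under the 40th percentile. Relative to wild type the change was 6.80 ± 0.12 in K/L cells (± SE of the limma fit; adjusted p = 4.43e-10), a 111-fold ratio of intensities, and 5.87 ± 0.12 in Sox4 cells (adjusted p = 1.13e-09), a 58.4-fold ratio. The wild type side holds little signal, so the size of these ratios rests on it, and with 16 added to each value before the logarithm the changes were 5.75 and 4.83.

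Another 2 Sox4 probe sets rose with it. Probe set 1449370_at measured 4.73, 4.40 and 4.52 on wild type arrays, 7.95, 8.26 and 8.27 on Sox4 arrays and 8.89, 8.93 and 8.71 on K/L arrays. Its changes were 4.29 ± 0.13 in K/L (adjusted p = 8.39e-09) and 3.61 ± 0.13 in Sox4 cells (adjusted p = 5.05e-08). Probe set 1419157_at measured 3.72, 3.45 and 4.01 on wild type arrays, 6.54, 6.05 and 5.78 on Sox4 arrays and 7.66, 7.47 and 7.18 on K/L arrays. It rose by 3.71 ± 0.21 in K/L (adjusted p = 6.81e-07) and by 2.40 ± 0.21 in Sox4 cells (adjusted p = 1.38e-05). In each of these 3 probe sets the order was wild type, then Sox4, then K/L cells with no overlap between any groups. They passed the filter only through the leukaemic arrays, since 0 of their wild type values lay above the 40th percentile.

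The other 3 tested Sox4 probe sets had clear signal in wild type cells and showed no such rise. Probe set 1455867_at measured 8.40, 8.81 and 7.78 on wild type arrays, 7.30, 7.52 and 7.53 on Sox4 arrays and 8.39, 8.22 and 8.22 on K/L arrays. It fell by 0.88 ± 0.22 in Sox4 cells (adjusted p = 0.00734), and K/L cells overlapped with wild type (change -0.05 ± 0.22, 95 percent interval -0.53 to 0.43, adjusted p = 0.865). Probe set 1419155_a_at, whose suffix marks a design for several transcripts of a gene, measured 7.90, 8.23 and 7.32 on wild type arrays, 7.23, 7.14 and 7.65 on Sox4 arrays and 8.43, 8.17 and 8.22 on K/L arrays. Neither change from wild type passed the test, with -0.48 ± 0.22 for Sox4 (adjusted p = 0.0979) and 0.45 ± 0.22 for K/L (adjusted p = 0.111). Probe set 1419156_at measured 7.90, 7.92 and 7.07 on wild type arrays, 7.68, 7.59 and 7.73 on Sox4 arrays and 8.31, 8.09 and 8.14 on K/L arrays. K/L cells lay above wild type by 0.56 ± 0.20 (adjusted p = 0.0427), a call that was lost in 8 of 17 alternatives (adjusted p of 0.0201 to 0.121 over them), while Sox4 cells changed by 0.04 ± 0.20 (interval -0.41 to 0.50, adjusted p = 0.886).

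Wild type array 3 was the lowest wild type array in each of these 3 probe sets. Without it the changes in Sox4 cells became -1.16 for 1455867_at (adjusted p = 0.000199), -0.73 for 1419155_a_at (adjusted p = 0.00788) and -0.24 for 1419156_at (adjusted p = 0.0765). In K/L cells they became -0.33 (adjusted p = 0.0813), 0.21 (adjusted p = 0.348) and 0.28 (adjusted p = 0.0441). The last Sox4 probe sets, 1443778_at and 1458332_x_at, were not tested: the first lay at the floor on all 9 arrays and the second on 7, with a highest value of 3.27 on a K/L array.

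**Figure D1:**
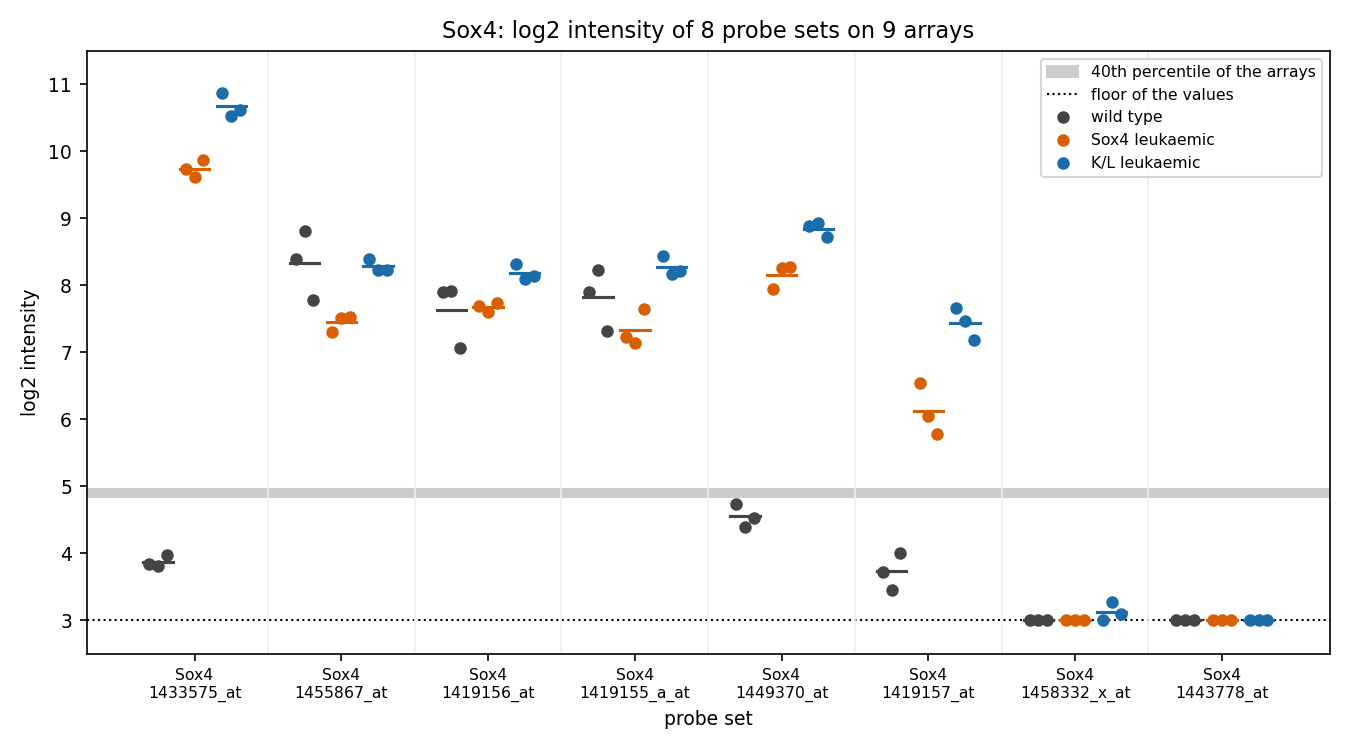
Log2 intensity (y axis) of the 8 Sox4 probe sets (x axis) on the 9 arrays; each point is 1 array, short lines are group means, the grey band is the 40th percentile of the arrays (4.84 to 4.95) and the dotted line the floor at 3. In 1433575_at, 1449370_at and 1419157_at the wild type points lie under the band and the leukaemic points far above it, while in 1455867_at, 1419156_at and 1419155_a_at all groups lie between 7.07 and 8.81.

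These probe sets of the same gene thus changed unequally. From wild type to K/L cells the largest and the smallest change among the 6 tested Sox4 probe sets lay 6.85 apart on the log2 scale, and from wild type to Sox4 cells 6.75 apart. Among 6197 genes with several tested probe sets the median distance was 0.43 and 0.37, and Sox4 ranked 3 in both, with 0.048 percent of genes as wide. Such a distance can grow with the number of probe sets, and genes were not matched for it. The largest change was that of 1433575_at, which passed the filter only through the leukaemic arrays, so the rank is a description. Within each array, 1433575_at minus 1455867_at was -4.46 ± 0.60 for the wild type, 2.29 ± 0.17 for the Sox4 and 2.39 ± 0.09 for the K/L arrays. The exact two-sided permutation p for the contrast of each leukaemia with wild type was 0.1, the smallest that 3 against 3 arrays allow (adjusted p = 0.136 over 15 such tests). Probe sets 1419155_a_at, 1419156_at, 1419157_at and 1449370_at are listed under the same source sequence in the platform annotation, yet 2 of them rose in both leukaemias and the other two differed by 0.56 or less from wild type. Which part of the transcript each probe set reads was not analysed here, nor whether a probe set detects RNA of the overexpressed copy, that of the mouse's own gene, or both.

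**Figure D2:**
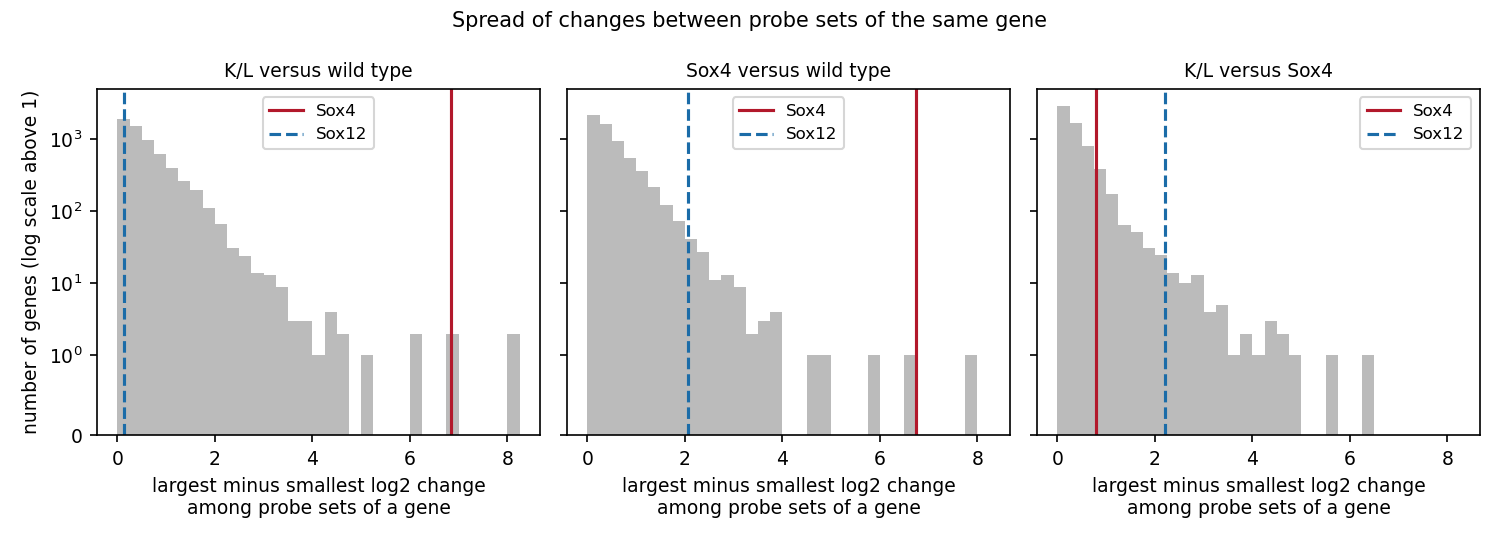
Number of genes (y axis, log scale above 1) by the distance between the largest and smallest log2 change among their tested probe sets (x axis), for 6197 genes in each of the 3 comparisons. The solid line marks Sox4, at 6.85, 6.75 and 0.80 in the panels from left to right, and the dashed line Sox12, at 0.14, 2.06 and 2.20.

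Between the leukaemias the Sox4 probe sets moved together. All 6 that were tested had every K/L array above every Sox4 array, which was so for 25.4 percent of all probe sets tested, and 5 of the 6 passed the test in limma, where 13.5 percent of probe sets were called higher. The differences were 0.93 ± 0.12 for 1433575_at (adjusted p = 0.000319), 0.83 ± 0.22 for 1455867_at (adjusted p = 0.0178) and 0.94 ± 0.22 for 1419155_a_at (adjusted p = 0.0107). They were 0.69 ± 0.13 for 1449370_at (adjusted p = 0.00359) and 1.31 ± 0.21 for 1419157_at (adjusted p = 0.00138). Probe set 1419156_at lay 0.51 ± 0.20 higher without passing (adjusted p = 0.0903), and it passed with each array centred on its median (0.59, adjusted p = 0.0488). The range between these probe sets was 0.80, against a median of 0.27 over all genes, and 11.1 percent of genes were as wide. Genes were again not matched for their number of probe sets. The 6 probe sets were read on the same RNA and are no independent replicates. The call for 1455867_at was lost without Sox4 array 1 (0.76, adjusted p = 0.0656) or K/L array 1 (0.77, adjusted p = 0.0614).

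Sox12 was high in Sox4 leukaemic cells. Its brightest probe set, 1455562_at, measured 6.53, 6.22 and 5.87 on wild type arrays, 8.71, 8.70 and 8.56 on Sox4 arrays and 5.84, 5.86 and 5.49 on K/L arrays. All Sox4 arrays lay above all others, and the K/L arrays lay under the wild type arrays by a narrow gap. The rise in Sox4 cells was 2.45 ± 0.17 (adjusted p = 2.74e-06), a 5.45-fold ratio of intensities. The K/L minus Sox4 difference was -2.92 ± 0.17 (adjusted p = 9.99e-07), a 7.59-fold ratio. The fall by 0.48 ± 0.17 from wild type to K/L cells passed the test (adjusted p = 0.0371) but not with each array centred on its median (-0.38, adjusted p = 0.0719) or after quantile normalization (-0.37, adjusted p = 0.0787).

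The remaining Sox12 probe sets had less signal and the same order of Sox4 cells above the rest. Probe set 1439754_at measured 5.05, 4.98 and 4.63 on wild type arrays, 5.36, 5.29 and 5.18 on Sox4 arrays and 4.78, 4.28 and 4.60 on K/L arrays. The K/L minus Sox4 difference was -0.72 ± 0.15 (adjusted p = 0.00641). Neither change relative to wild type passed, with 0.39 ± 0.15 for Sox4 (adjusted p = 0.061) and -0.33 ± 0.15 for K/L (adjusted p = 0.0956). Without wild type array 3 the latter became -0.46 and passed (adjusted p = 0.024). Probe set 1456882_at did not pass the filter, at 3.69, 3.98 and 3.96 on wild type arrays, 4.50, 4.18 and 4.42 on Sox4 arrays and 3.94, 3.97 and 3.77 on K/L arrays. With no filter its change in Sox4 cells was 0.49 ± 0.12 (adjusted p = 0.0143). The rise in Sox4 cells differed by 2.06 between the tested Sox12 probe sets, a distance that 1.71 percent of genes reached.

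A neighbour of Sox12 on chromosome 2 was also highest in Sox4 cells. Zcchc3, which encodes a zinc finger protein that binds nucleic acids, is the next protein-coding gene on the arrays in the RefSeq gene table. Its brighter probe set, 1428402_at, measured 6.24, 5.78 and 3.26 on wild type arrays, 8.83, 8.40 and 8.66 on Sox4 arrays and 3.24, 3.35 and 3.54 on K/L arrays. Its other probe set, 1428401_at, measured 4.08, 3.92 and 3.70 on wild type arrays, 5.68, 5.74 and 5.63 on Sox4 arrays and 3.68, 4.13 and 3.75 on K/L arrays. All Sox4 arrays lay above the others in both, and wild type array 3 lay with the K/L arrays in the first. As a gene, Zcchc3 rose by 3.54 ± 0.61 in Sox4 cells (adjusted p = 0.000939). On the other side of Sox12, Nrsn2 did not pass the filter, and the pseudokinase gene Trib3 passed in no comparison (group means of 5.18, 5.18 and 5.08, adjusted p = 0.652 to 0.985). Rbck1, of linear ubiquitin chain assembly, rose in both leukaemias (1.19 ± 0.14 for K/L and 0.96 ± 0.14 for Sox4, adjusted p = 7.22e-05 and 0.000307). Beyond Zcchc3, 6820408C15Rik and Defb29 did not pass the filter.

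Neighbours of Sox4 on chromosome 13 are given by the probe set of highest mean. Cdkal1, a gene of transfer RNA modification, had group means of 10.74, 10.54 and 10.74 (wild type, Sox4, K/L), and the cell cycle regulator E2f3 8.95, 9.27 and 8.97, and neither of these probe sets was called in any comparison. Other probe sets of both genes were called: E2f3 1427462_at rose by 0.36 in K/L and 0.39 in Sox4 cells (adjusted p = 0.0465 and 0.0355), and Cdkal1 1430039_at was lower in K/L cells (-0.92, adjusted p = 0.0379). Mboat1, a gene of phospholipid acyl transfer, had group means of 8.40, 8.47 and 5.31 (wild type, Sox4, K/L) and fell in K/L cells (K/L versus wild type -3.09 ± 0.10, adjusted p = 1.42e-08). On the other side, the prolactin family gene Prl4a1 rose by 0.34 ± 0.12 in K/L cells (adjusted p = 0.04) near the 40th percentile, and Prl2a1 and Prl5a1 did not pass the filter.

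Megakaryocyte genes moved with the same groups as Sox12. Of the 4 markers fixed for that lineage, Pf4, Itga2b, Gp1bb and Gp9, 4 were higher in Sox4 than in wild type cells and 4 were lower in K/L than in Sox4 cells, against 26.7 and 14 percent of all genes tested. Pf4, the platelet factor gene, rose by 6.69 ± 0.19 in Sox4 cells (adjusted p = 1.2e-08), and the others by 0.50 to 0.96. Their summed linear intensity was 178 to 284 in wild type, 1190 to 1933 in Sox4 and 196 to 202 in K/L arrays, and Pf4 made up most of it on the Sox4 arrays. In RNA of sorted populations, fewer cells of a type and less RNA per cell cannot be told apart. Of the erythroid markers, 3 of 4 were measured and 2 tested, and Klf1 rose by 1.11 ± 0.15 in Sox4 cells (adjusted p = 0.000231). The other tested one, Hba-a1, passed in no comparison (adjusted p = 0.267 to 0.713), and Epor did not pass the filter. The sums of the erythroid list were 91.3 to 130 on wild type, 174 to 181 on Sox4 and 107 to 118 on K/L arrays. Pecam1, an endothelial and haematopoietic adhesion gene in the stroma and endothelium list, fell by 1.93 ± 0.14 in Sox4 cells (adjusted p = 4.33e-06), and the other tested member, Col1a1, passed in no comparison. Of the plasmacytoid dendritic markers, Siglech passed in no comparison and Ccr9 fell by 0.58 ± 0.15 in K/L cells (adjusted p = 0.00927), while its other tested probe sets did not pass (adjusted p = 0.0565 and 0.13). The tested T and NK markers Cd3e, Cd4 and Cd8a passed in no comparison (adjusted p = 0.0789 to 0.95). The part of any of these cells in the Sox12 result was not tested.

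Sox11 gave almost no signal. Of its 6 probe sets only 1429051_s_at passed the filter, with 4.99, 4.97 and 4.62 on wild type arrays, 5.08, 5.14 and 4.83 on Sox4 arrays and 5.47, 5.00 and 5.46 on K/L arrays, all close to the 40th percentile. Its suffix marks probes shared by transcripts of different genes, so its signal cannot be given to Sox11 alone. K/L cells lay above wild type by 0.45 ± 0.16 (adjusted p = 0.0407), a call that was lost in 11 of 17 alternatives. Sox4 cells changed by 0.16 ± 0.16 (interval -0.21 to 0.52, adjusted p = 0.458) and K/L differed from Sox4 cells by 0.29 ± 0.16 (interval -0.07 to 0.66, adjusted p = 0.22). The other Sox11 probe sets lay below the 40th percentile on all arrays. Values of 1453002_at were 3.91 to 4.27 and those of 1431225_at 3.17 to 3.83. On 7 arrays 1453125_at and 1429372_at were at the floor, with highest values of 3.32 and 3.06, and 1436790_a_at was there on all 9. Markers of neural tissue, where Sox11 is best known, were as low: Dcx, Tubb3 and Map2 did not pass the filter, and Stmn2 passed in no comparison (means of 4.95, 5.08 and 4.99). Next to Sox11 on chromosome 12, the ubiquitin ligase gene Rnf144a rose by 0.56 ± 0.14 in K/L cells (adjusted p = 0.00899). The interferon-inducible Cmpk2 rose by 0.52 ± 0.17 in Sox4 cells (adjusted p = 0.0271). Colec11 lay 0.47 ± 0.14 higher in K/L than in Sox4 cells (adjusted p = 0.0281), and Dcdc2c and Allc did not pass the filter. The other probe sets of Rnf144a and the other one of Cmpk2 passed in no comparison. The interferon-inducible Rsad2 was not called by its brightest probe set, but its other tested one, 1421009_at, rose by 0.98 in K/L and 1.07 in Sox4 cells (adjusted p = 0.0166 and 0.0115).

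**Figure D3:**
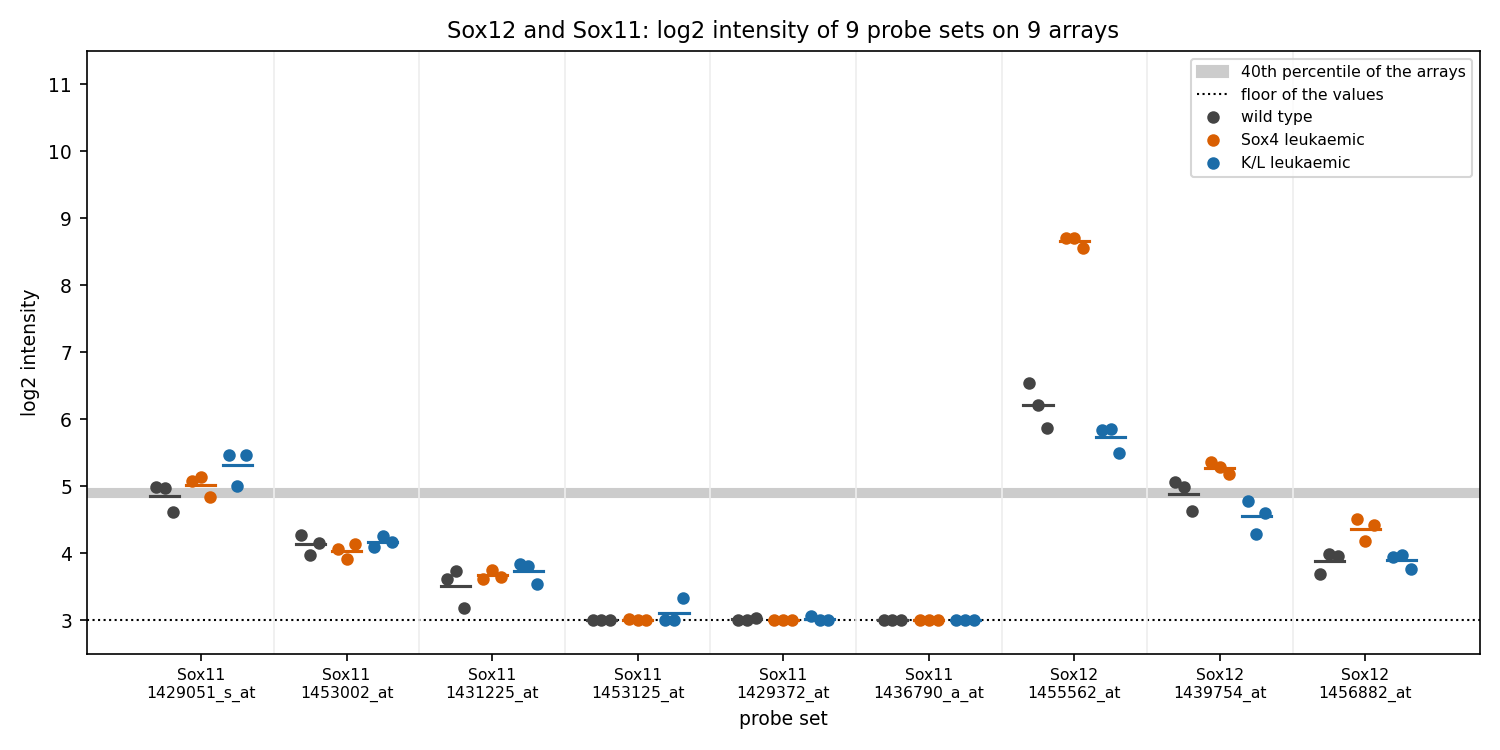
Log2 intensity (y axis) of the 6 Sox11 and 3 Sox12 probe sets (x axis) on the 9 arrays; points are arrays, short lines group means, the grey band the 40th percentile of the arrays and the dotted line the floor. In Sox12 1455562_at the Sox4 points at 8.56 to 8.71 stand above all others, and the Sox11 points stay at or below 5.47.

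Over the whole family, 9 of the 17 probe sets passed the filter. Of these, 6 were called in K/L versus wild type (5 higher, 1 lower), where 51.3 percent of all probe sets tested were called, 26.3 percent higher and 25 percent lower. Of the 6 calls, 3 were lost without Sox4 array 1, Sox4 array 2, K/L array 1 or K/L array 3, and in each case the calls for 1433575_at, 1449370_at and 1419157_at were kept. In Sox4 versus wild type 5 were called (4 higher, 1 lower; background 48.1 percent, 24.4 higher and 23.7 lower), and in K/L versus Sox4 7 were called (5 higher, 2 lower; background 27.3 percent, 13.5 higher and 13.8 lower). Both comparisons with wild type use the same 3 wild type arrays. The filter lets a probe set pass through 1 group alone, so these counts are a description.

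**Figure D4:**
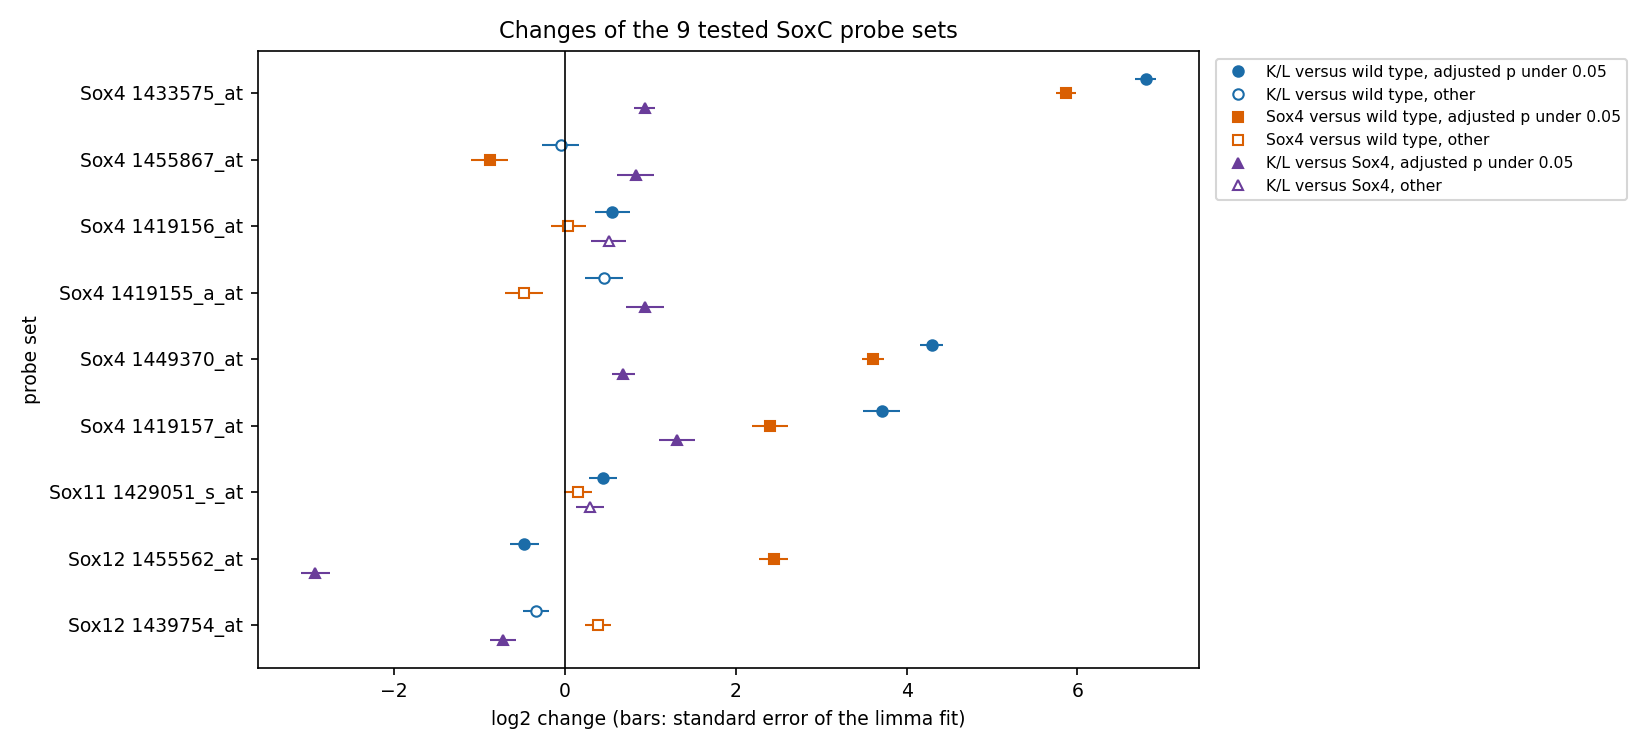
Log2 change (x axis) of the 9 tested SoxC probe sets (y axis) in the 3 comparisons; bars are the standard error of the limma fit and filled symbols have an adjusted p under 0.05. Triangles for K/L versus Sox4 lie between 0.51 and 1.31 in all 6 Sox4 probe sets and at -2.92 and -0.72 in the Sox12 probe sets.

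Genes that followed the members most closely were sought among 12825 other tested genes, each with 1 probe set and centred on its mean over the 9 arrays. For Sox4 (1433575_at) the smallest root mean square distance was that of Mndal, an interferon-inducible p200 gene (0.44 on the log2 scale, with means of 3.14, 8.91 and 9.05 in the order wild type, Sox4, K/L). It was followed by the protease gene Ctss (0.57), the carbonic anhydrase gene Car3 (1.11), the calcium-binding protein gene S100a4 (1.16) and Cdkn1b, a brake on the cell cycle (1.18). Sox4 itself varied by 3.01 on this measure. For Sox12 (1455562_at), which varied by 1.29, the nearest were Hopx, a homeobox gene of stem cells (0.15, with 4.41, 6.85 and 3.91), Lgalsl (0.20), the kinesin gene Kif1c (0.21), Arhgap32 (0.22) and 9030619P08Rik (0.22). For Sox11 (1429051_s_at), whose own variation was 0.26, they were Zfp593, Lasp1, Krtap5-1, Mppe1 and Eaf1 (0.08 to 0.12).

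Other Sox genes mostly gave little signal. All 16 were on the arrays and 7 passed the filter. In K/L versus wild type 2 were higher and 1 lower (median of the 7 changes -0.02), where 50.6 percent of 12826 genes were called, 29 percent higher and 21.6 percent lower, with a median change of 0.06. In Sox4 versus wild type 1 was higher and 1 lower (background 47.8 percent, 26.7 higher and 21.1 lower; medians of -0.10 and 0.03; 4 genes called without wild type array 3), and in K/L versus Sox4 1 was lower (background 28.9 percent, 14.9 higher and 14 lower; medians of 0.06 and 0.03). Sox13, a SoxD gene known from T cells, had the clearest change: its means were 6.22, 5.61 and 4.90 (wild type, Sox4, K/L) and it fell by 1.32 ± 0.15 in K/L (adjusted p = 7.32e-05) and by 0.61 ± 0.15 in Sox4 cells (adjusted p = 0.00808). Its SoxD relative Sox5 rose by 0.42 ± 0.11 in K/L and 0.62 ± 0.11 in Sox4 cells from a mean of 5.06 (adjusted p = 0.011 and 0.00126). Its other tested probe set, 1432189_a_at, rose in K/L cells (0.41, adjusted p = 0.0149) and was not called in Sox4 cells (0.11, adjusted p = 0.454). Sox1 rose by 0.54 ± 0.13 in K/L cells (adjusted p = 0.00549) to a mean of 5.07, and Sox10 passed in no comparison (adjusted p = 0.149 to 0.935). Sox2 was at the floor on all arrays.

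Partners of SoxC proteins and of the Wnt pathway were mostly well expressed, and 9 of 10 were measured and tested. In K/L versus wild type 2 were higher and 2 lower (median -0.25; 50.6 percent of all genes were called), in Sox4 versus wild type 1 higher and 4 lower (median -0.26; 47.8 percent), and in K/L versus Sox4 1 higher and 1 lower (median -0.09; 28.9 percent). Counted in either direction, these shares are near the background. By direction, the background was 29 percent higher and 21.6 percent lower in K/L versus wild type. In Sox4 versus wild type it was 26.7 percent higher and 21.1 percent lower, and the 4 of 9 partners that were lower are a larger share. In K/L versus Sox4 it was 14.9 percent higher and 14 percent lower. Without wild type array 1 or 2 or Sox4 array 1 or 2, the 5 calls in Sox4 versus wild type were 3. Tcf7l2, a DNA-binding partner of β-catenin, rose from 4.36 in wild type to 6.87 in Sox4 cells (2.51 ± 0.27, adjusted p = 5.37e-05) and its K/L minus Sox4 difference was -1.69 ± 0.27 (adjusted p = 0.00126). In K/L cells it rose by 0.82 ± 0.27 over wild type (adjusted p = 0.0303), a call that was lost with no filter (adjusted p = 0.069). Its other tested probe set, 1426639_a_at, rose by 1.44 in Sox4 cells (adjusted p = 0.00123) and was not called in K/L cells (0.66, adjusted p = 0.0546). Jup, which encodes the β-catenin relative plakoglobin, fell from 8.59 to 6.64 in Sox4 cells (-1.95 ± 0.27, adjusted p = 0.000236) and lay 1.52 ± 0.27 higher in K/L than in Sox4 cells (adjusted p = 0.00212). It was read by 1426873_s_at alone, whose suffix, like that of the tested Sox11 probe set, marks probes shared by transcripts of different genes. Sdcbp, which encodes syntenin, a protein known to bind and stabilise Sox4, fell in both (-0.42 ± 0.09 in K/L and -0.26 ± 0.09 in Sox4 cells, adjusted p = 0.00315 and 0.0347). Its other probe sets, 1430528_at and 1450941_at, changed by -2.14 and -0.85 in K/L cells. Csnk2a1, a casein kinase gene, fell by 0.58 ± 0.11 in K/L (adjusted p = 0.00183) and by 0.49 ± 0.11 in Sox4 cells (adjusted p = 0.00514).

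Of 11 genes known as SoxC targets in other tissues, 5 passed the filter. In K/L versus wild type 1 was higher and 1 lower (median -0.10; 50.6 percent of all genes were called), in Sox4 versus wild type 2 were lower and the others did not pass (median -0.34; 47.8 percent), and in K/L versus Sox4 1 was higher (median 0.14; 28.9 percent), or 2 without wild type array 3. Counted in either direction on all 9 arrays, these shares do not exceed the background. By direction, the 2 of 5 lower in Sox4 versus wild type are a larger share than the 21.1 percent of all genes. So is the 1 of 5 higher in K/L versus Sox4, against 14.9 percent. In K/L versus wild type neither direction exceeded its background of 29 percent higher and 21.6 percent lower. The Wnt receptor gene Fzd3 fell by 3.20 ± 0.21 in K/L and by 3.01 ± 0.21 in Sox4 cells (adjusted p = 1.84e-06 and 3.26e-06), and its 6 probe sets all had lower means in both leukaemias. Ezh2, the Polycomb methyltransferase gene, fell by 0.58 ± 0.09 in Sox4 cells (adjusted p = 0.000439) and lay 0.49 ± 0.09 higher in K/L than in Sox4 cells (adjusted p = 0.0025). Dicer1, of microRNA processing, rose by 0.69 ± 0.18 in K/L cells (adjusted p = 0.0109), while its second probe set, 1460571_at, changed by -0.16 (adjusted p = 0.325). Tead2, a direct target in embryonic tissue, passed in no comparison (adjusted p = 0.123 to 0.588), nor did Spi1, which encodes PU.1 (means of 8.14, 8.09 and 8.04).

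Of 11 known regulators of Sox4, from the C/EBP family and TGF-β signalling, 10 were tested. In K/L versus wild type 4 were higher and 3 lower (median 0.01; 50.6 percent of all genes were called), in Sox4 versus wild type 6 higher and 4 lower (median 0.38; 47.8 percent) and in K/L versus Sox4 1 higher and 1 lower (median 0.00; 28.9 percent). In K/L versus Sox4 both calls were lost without Sox4 array 1 or 2 or K/L array 1 or 3, and the count was 1 without Sox4 array 3 or K/L array 2. Cebpa itself rose by 0.97 ± 0.13 in K/L and 0.99 ± 0.13 in Sox4 cells (adjusted p = 0.000168 and 0.000155), with 9.78, 9.67 and 9.31 on the wild type arrays against 10.50 to 10.64 on the Sox4 and 10.47 to 10.66 on the K/L arrays. Cebpa and the Sox4 probe sets 1433575_at, 1449370_at and 1419157_at were thus higher in both leukaemias. The Sox4 probe sets 1455867_at and 1419155_a_at were called higher in neither, and 1419156_at in K/L cells only. An RNA level does not show which protein the mutant alleles make. Tgfb1, the TGF-β ligand gene, rose by 3.04 ± 0.40 in K/L and 2.95 ± 0.40 in Sox4 cells (adjusted p = 0.000158 and 0.000203), from 5.33 to 7.08 on the wild type arrays. Its receptor gene Tgfbr2 rose by 1.22 ± 0.16 and 1.16 ± 0.16 (adjusted p = 0.000132 and 0.000192), while its other tested probe set, 1425444_a_at, passed in neither (0.29 and 0.24, adjusted p = 0.133 and 0.208). Tgfbr1 fell by 0.72 ± 0.12 in Sox4 cells (adjusted p = 0.000756), and all 3 of its probe sets had lower means there. In K/L cells this probe set was not called, but 1420893_a_at and 1420894_at were lower (-0.64 and -0.61, adjusted p = 0.000874 and 0.00994).

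**Figure D5:**
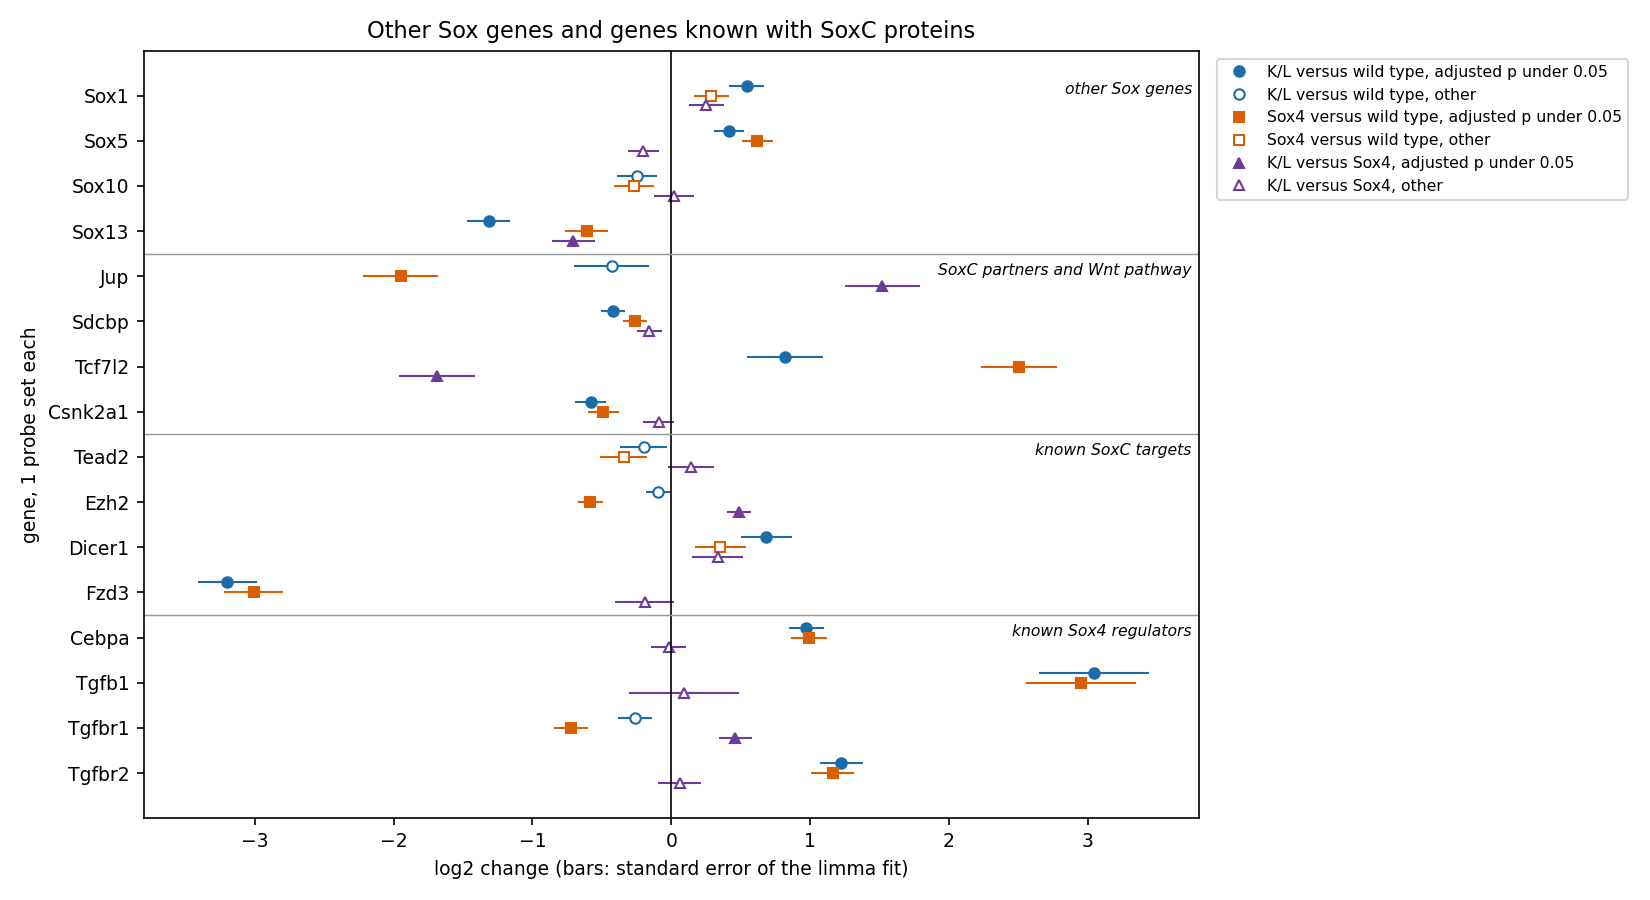
Log2 change (x axis) of the named genes of the 4 related lists (y axis, 1 probe set a gene) in the 3 comparisons; bars are the standard error of the limma fit, filled symbols have an adjusted p under 0.05 and grey lines part the lists. Fzd3 stands at -3.20 and -3.01 and Tgfb1 at 3.04 and 2.95 in the leukaemias against wild type, while Tcf7l2 and Jup separate Sox4 from K/L cells.

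B cell genes were checked because Sox4 is best known in blood from that lineage. Of 9 markers 8 were measured and 5 tested, with 2 higher in K/L versus wild type, 1 higher and 1 lower in Sox4 versus wild type, and 2 higher and 1 lower in K/L versus Sox4 (50.6, 47.8 and 28.9 percent of all genes were called). In the same order the median changes of the 5 tested markers were -0.08, -0.24 and 0.02. Cd79a, of the B cell receptor, had means of 4.98, 4.34 and 6.08 (wild type, Sox4, K/L), and Vpreb1, of the pre-B cell receptor, 7.63, 7.16 and 8.34. Dntt, of early lymphoid cells, went the other way, rising by 0.71 ± 0.23 in Sox4 cells (adjusted p = 0.0293) with a K/L minus Sox4 difference of -1.03 ± 0.23 (adjusted p = 0.00815). Its other probe sets, 1420166_at and 1449757_x_at, rose more in Sox4 cells (2.06 and 1.56, adjusted p = 1.51e-05 and 0.000106). Pax5 and Igll1 were tested and passed in no comparison (adjusted p = 0.167 to 0.946). Rag1 and Ms4a1 did not pass the filter, with means of 3.07 and 3.71 at most. The summed linear intensity of the list was 347 to 444 in wild type, 295 to 364 in Sox4 and 519 to 544 in K/L arrays, with much of it from Vpreb1. The sums were highest in K/L arrays and overlapped between wild type and Sox4 arrays, and their part in the Sox4 result was not tested.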

How the data were processed

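Total RNA (5 ug) of sorted cells was labelled as biotin cRNA and hybridised to Affymetrix arrays, per the labels' protocols. The authors deposited linear intensity values, 1 per probe set and array, none under 8. Per the submitters' processing notes RMA was used; its version is not given in the sources used here. Values were log2 transformed and kept as scaled. Of 45101 probe sets, 34958 had 1 gene symbol in the platform annotation, 24036 of these were tested, and genes were represented by the probe set of highest mean (18194 genes, 12826 tested). Tests used limma 3.58.1 in R 4.3.3 (lmFit, eBayes, all 9 arrays, 3 groups; 6 residual and 3.85 prior degrees of freedom) with Benjamini-Hochberg adjustment over all probe sets, or all genes for lists, at 0.05. The procedure was tested on simulated data. Named genes were every member probe set, the 5 genes nearest each member, up to 4 genes of smallest p per list, and 3 neighbours a side; Sox2, Spi1 and single marker genes were named after their values were seen. Marker lists covered the sort gate, myeloid progenitor, B, T and NK, erythroid, megakaryocyte, plasmacytoid dendritic, neural, and stroma and endothelium genes. Members and lists were chosen with earlier results of these data known. Ly6a, Tcf7 and Cebpe were not analysed here.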

Additional observations from a re-analysis of the deposited data

Results flagged for a closer look

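Sox12 (1455562_at) stood out because it differed between the leukaemias, with a K/L minus Sox4 difference of -2.92 ± 0.17 (limma adjusted p = 9.99e-07). Its changes from wild type had opposite signs, 2.45 ± 0.17 for Sox4 and -0.48 ± 0.17 for K/L cells. Both changes use the same wild type arrays, and the fall in K/L cells was not past the test in 11 of 18 alternatives.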

How the results depend on the processing

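Of 18 called changes of member probe sets, 14 kept their direction and their call under every alternative run. The number of SoxC probe sets called in K/L versus wild type was 3 in place of 6 with no filter, with only the arrays of the groups compared and with 1 probe set per gene, and 3 to 6 leaving out single arrays. With 1 probe set per gene, by construction fewer are tested, and 2 were called in place of 5 in Sox4 versus wild type and 2 in place of 7 in K/L versus Sox4. Leaving out single arrays gave 5 to 6 and 6 to 8 there. As the mean of all its probe sets, Sox4 changed by 1.99 in K/L and 1.32 in Sox4 cells and by 0.67 between them, all past the test. With the replicate number as a block 5 SoxC probe sets were called in K/L versus wild type, 5 in Sox4 versus wild type and 7 in K/L versus Sox4; the Sox11 call was lost (adjusted p = 0.0516). Same-numbered arrays shared only a number (correlations of their deviations -0.01 to 0.08), and 3 of 9 arrays correlated best with their own number. Signs turned only in changes that had not passed. Median centring gave 0.0425 for 1455867_at in K/L versus wild type and 0.0605 for Cebpa in K/L versus Sox4, and the mean of all probe sets gave -0.0485 for Tgfb1 in K/L versus Sox4. Leaving out single arrays gave ranges of -0.33 to 0.19 for 1455867_at in K/L versus wild type and -0.24 to 0.19 for 1419156_at in Sox4 versus wild type. In K/L versus Sox4 these ranges were -0.0706 to 0.0261 for Cebpa, -0.0844 to 0.099 for Sox10, -0.0357 to 0.26 for Tead2, -0.0737 to 0.21 for Tgfb1 and -0.0801 to 0.21 for Tgfbr2. The cause of these shifts was not tested. Signal near the floor limits Sox11 and the wild type level of the rising Sox4 probe sets.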
